A study of Mus musculus with 12 samples.

Results

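The genes described here build the contacts between neighbouring cells: the claudins and their tight junction partners, the connexins of gap junctions, the cadherins of adherens junctions, and the cadherins and plaque proteins of desmosomes. They were chosen by a rule on gene symbols, set with earlier results of these data known. It took symbols formed by Cldn, Gja, Gjb, Gjc, Cdh or Dsg with a number, Dsc1 to Dsc3, Pkp1 to Pkp4, the Tjp scaffold genes, Ocln, F11r, Dsp and Jup. The rule found 91 of the 24532 genes in the table, namely 32 claudins, 5 tight junction partners, 16 connexins, 23 cadherins and 15 desmosome and plaque genes. Of these, 38 had enough reads to be tested and 53 did not.

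RNA was sequenced from liver pieces of 12 mice, 4 per group. The 3 groups were Atp7b-/- mice given an LXR agonist (LXR, liver X receptor) in their food, called KO-Drug, Atp7b-/- mice without the agonist (KO), and controls labelled Het. All were 20 wk old and of the mixed strain C57BL/6x129S6/SvEv. Atp7b encodes the copper-exporting ATPase that is lost in Wilson disease, and LXR is a nuclear receptor that senses oxysterols. The labels name neither the agonist, its dose and its duration nor the sex of the animals, the nature of the knockout allele or whether the Het controls are littermates.

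In liver, tight junctions seal the bile canaliculus, so that bile and blood stay apart. Claudins form the seal and set which ions pass, occludin and the junctional adhesion molecules lie beside them, and the Tjp scaffold proteins tie them to actin. Connexins form channels through which neighbouring hepatocytes share ions and small metabolites. Classical cadherins hold cells together at adherens junctions, with E-cadherin and N-cadherin both made by hepatocytes, and desmosomes anchor keratin filaments through plakophilins, plakoglobin and desmoplakin.

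The library totals lay between 18841560 and 20174103 counts in KO-Drug, 16535938 and 28329751 in KO and 19724743 and 25054822 in Het. Atp7b itself averaged 2.22 ± 1.11 CPM in KO-Drug, 2.09 ± 0.475 in KO and 12.8 ± 2.62 in Het (SD, n = 4 each), a log2 fold change of -2.61 in KO against Het (SE 0.32, edgeR adjusted p = 5.29e-05). CPM, the usual unit for counts relative to library size, were computed here on library totals scaled by the trimmed mean of M values (TMM), which assumes that most genes do not differ. The number of genes with at least 1 read was 14210 to 14486 in KO-Drug, 16000 to 16430 in KO and 13858 to 14177 in Het. Libraries KO-5 and KO-6 stood apart in sex-linked transcripts: Xist was at 81.7 CPM in KO-5 and 17.8 in KO-6 and at most 0.425 elsewhere, and the Y-linked Ddx3y was at 0.379 CPM in KO-5, 64.4 in KO-6 and 79.4 to 111 elsewhere. Results that changed when KO-2 and KO-4 were the only KO libraries are named beside the genes. The hepatocyte marker list, led by albumin, was present in all libraries, with a summed level of 61180 to 80260 CPM in KO-Drug, 32840 to 59560 in KO and 71020 to 120400 in Het.

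Between KO and Het livers, 11 of the 38 tested junction genes were higher and 4 lower. Among those higher were Cldn4, Cldn7, Cldn18, F11r, Gja1, Gja4, Cdh1, Cdh17, Dsp and Pkp1, and those lower were Cldn5, Cldn12, Dsg1c and Pkp4. The share called, 39.5%, lay next to the 40.7% called over all 13379 tested genes (23.0% higher and 17.7% lower), so the share among the junction genes was near the background. Their median log2 fold change was 0.27, against 0.02 over all genes. Between KO-Drug and KO livers, 1 junction gene was higher (Dsc2) and 7 were lower (Cldn4, Cldn14, F11r, Gja4, Cdh1, Cdh17 and Pkp1). That is 21.1%, against 19.8% of all genes (8.8% higher and 11% lower), with a median log2 fold change of -0.31 against -0.02. Between KO-Drug and Het livers, 4 were higher (Cldn18, Dsc2 and Pkp2 among them) and 2 lower (Cldn12 and Dsg1c), or 15.8% against 21.4% of all genes (13.0% higher and 8.45% lower), with a median of -0.08 against -5.22e-05. Called means an adjusted p under 0.05 in edgeR's quasi-likelihood test over all tested genes. Cldn4, Cldn7, Cdh17 and Pkp1 passed the filter on low counts through the KO libraries alone. The filter could admit them only where KO was high, so their place in these counts was partly set by it. Without the filter their calls held, except that of Cldn4 in KO-Drug against KO (edgeR adjusted p = 0.0696). The 3 comparisons share groups, so they are not independent of each other.

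The split into higher and lower depended on the scaling. With scaling by total counts in place of TMM, the median log2 fold change of all genes moved to 0.54 in KO against Het, -0.36 in KO-Drug against KO and 0.18 in KO-Drug against Het. Junction genes called were then 20 higher and 1 lower, 0 higher and 12 lower, and 4 higher and 1 lower in the same order of comparisons. The junction medians moved with them, to 0.81, -0.66 and 0.07, and 7, 9 and 5 of the 38 genes took the other sign. Directions below are therefore relative to the bulk of genes.

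**Figure D1:**
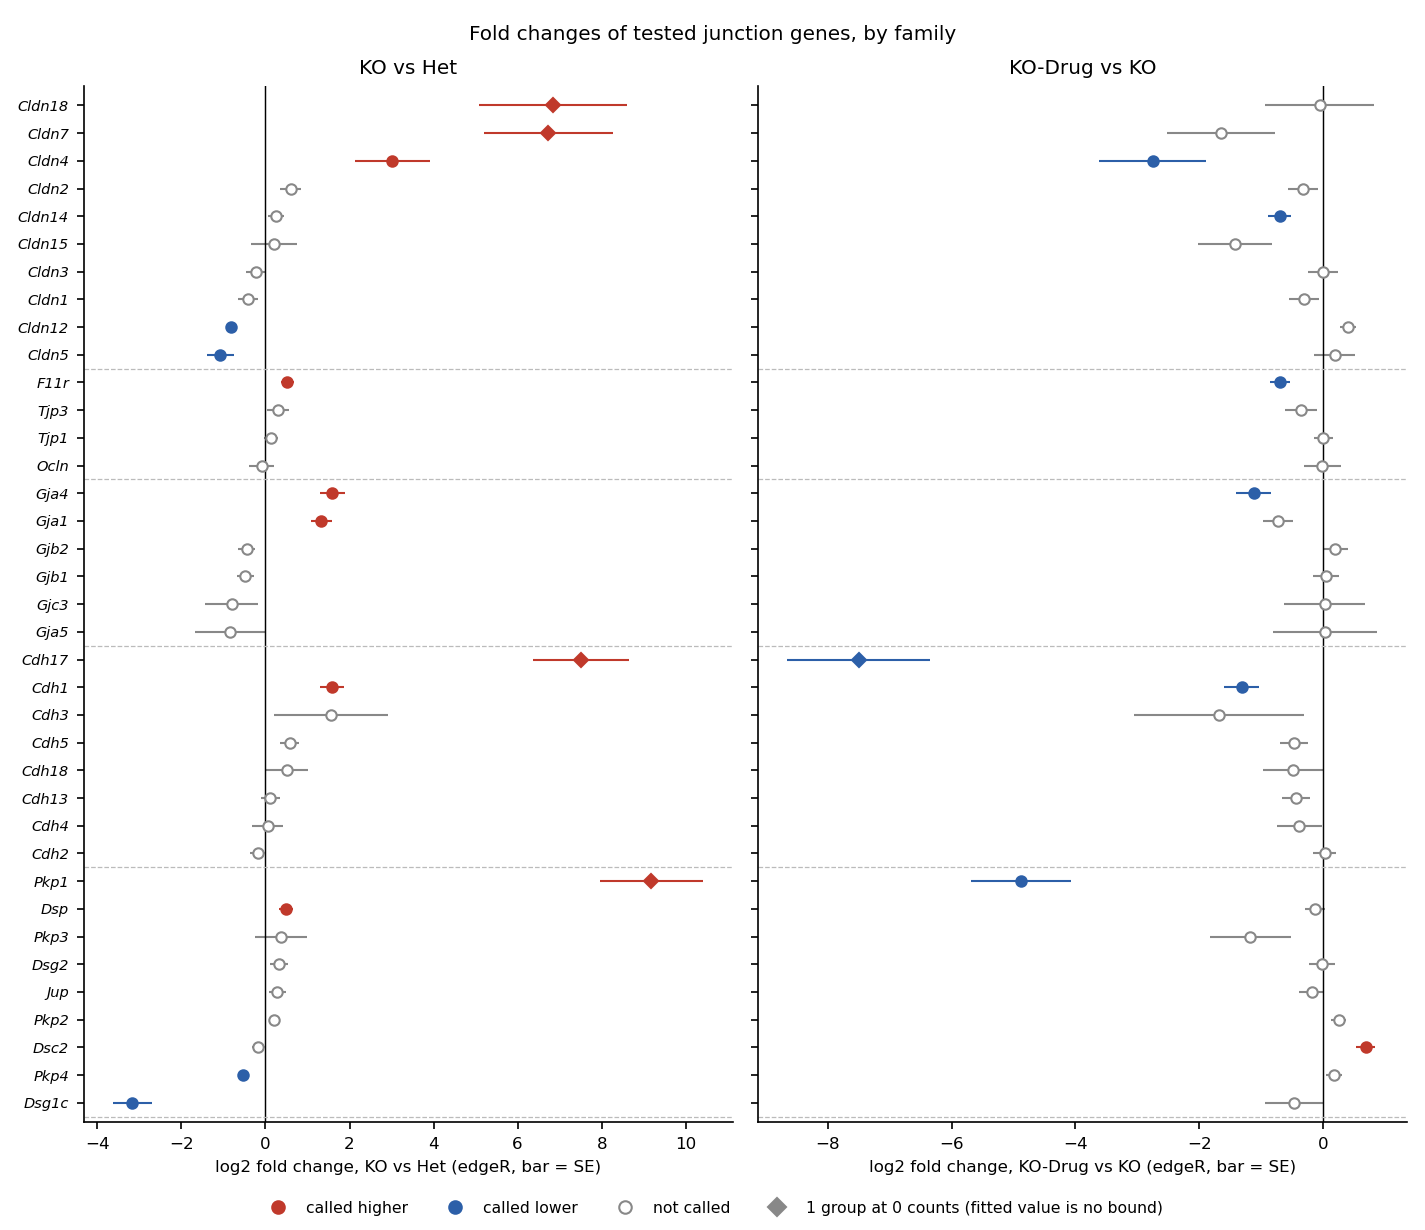
Log2 fold change (x axis) of the tested junction genes reported here (rows, grouped by family between dashed lines) in KO against Het (left) and KO-Drug against KO (right). Bars are the standard error, derived from the F statistic of edgeR's test. Filled red points were called higher, filled blue points called lower and open points not called. Diamonds have 1 group without any count, so that their fitted value is no bound. Cldn4, F11r, Gja4, Cdh1, Cdh17 and Pkp1 lie to the right in the left panel and to the left in the right one. Of these, Cldn4, Cdh17 and Pkp1 passed the filter on low counts through the KO libraries alone.

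Per length, the claudin transcripts of these livers were shared by a few genes. In FPKM, the authors' length-scaled level, Cldn3, Cldn2, Cldn1 and Cldn12 made up most of the claudin sum in each group. Cldn2, which forms pores for cations and water, held 24.1% ± 3.68 of the claudin FPKM in KO-Drug, 27.9% ± 2.36 in KO and 16.7% ± 1.85 in Het (SD, n = 4 each). Cldn12 held 20.5% ± 2.3 in KO-Drug, 14.2% ± 2.31 in KO and 21.9% ± 3.24 in Het. Cldn1, a sealing claudin, held 21.2% ± 4.23, 23.3% ± 3.87 and 27.6% ± 3.35 in KO-Drug, KO and Het, and Cldn3, also a sealing claudin, held 27.6% ± 3.09, 25.1% ± 2.61 and 26.4% ± 2.29. These shares do not depend on the scaling between libraries. In KO, Cldn2 had the largest mean share, while in Het it stood behind Cldn1, Cldn3 and Cldn12.

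**Figure D2:**
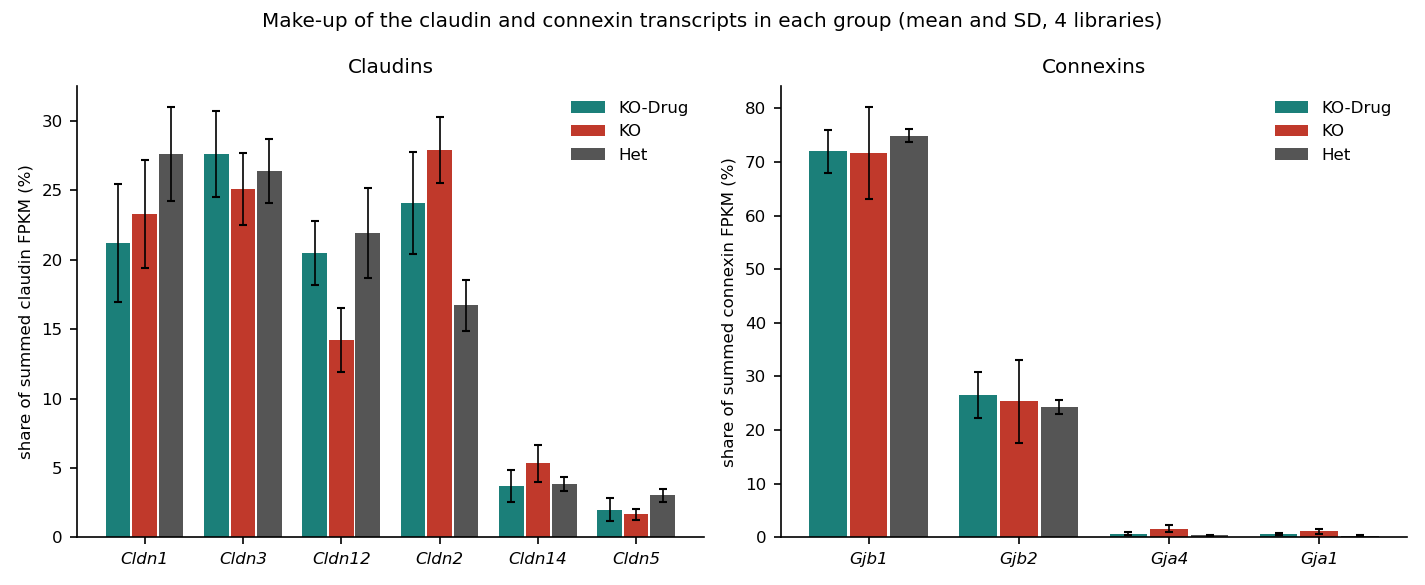
Share of the summed FPKM of all claudins (left, y axis in percent) and of all connexins (right) held by the genes with the largest mean share in Het. Bars are means and whiskers SDs over the 4 libraries of KO-Drug (teal), KO (red) and Het (grey). The Cldn12 bar is lowest and the Cldn2 bar highest in KO, and Gjb1 and Gjb2 fill nearly all of the connexin sum.

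Cldn12, a claudin linked to calcium passage in gut, was the most abundant claudin that was called. It stood at 66.7, 102, 74.7 and 69 CPM in KO-Drug, 59.2, 55.5, 58.4 and 63 in KO, and 112, 111, 95.4 and 96 in Het livers. All KO livers were below all Het livers and below all KO-Drug livers, while KO-Drug and Het overlapped. The fall in KO against Het was 1.75-fold (log2 fold change -0.81, SE 0.14, edgeR adjusted p = 0.000562). KO-Drug was 0.40 above KO on the log2 scale and not called (SE 0.14, edgeR adjusted p = 0.0523), and -0.41 from Het (edgeR adjusted p = 0.0483). With total-count scaling neither the KO nor the KO-Drug difference from Het was called (-0.30, adjusted p = 0.105, and -0.24, adjusted p = 0.3), and the KO-Drug call against Het was lost without any 1 of 7 libraries (all of both groups but KO-Drug-2, adjusted p 0.0566 to 0.129).

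Cldn5, the main claudin of endothelium, was also lower in KO. Its levels were 1.36, 5.16, 2.26 and 3.13 CPM in KO-Drug, 3.11, 2.52, 2.6 and 2.2 in KO, and 5.72, 6.34, 6.08 and 3.82 in Het. KO lay below Het without overlap, while KO-Drug covered the range of KO and, of the Het livers, reached above the lowest only. The fall in KO against Het was 2.1-fold (log2 -1.07, SE 0.33, edgeR adjusted p = 0.0194). It was not called without KO-6 (adjusted p = 0.0511), with KO-2 and KO-4 as the only KO libraries (0.0904) or with total-count scaling (-0.54, 0.179). Of the 12 endothelial markers, 3 were higher and none lower in KO against Het, and their summed level overlapped between the groups, at 396.5 to 530 CPM in KO-Drug, 458 to 526 in KO and 356 to 602 in Het.

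Cldn4, Cldn7 and Cldn18 were scarce and nearly all of their reads came from Atp7b-/- livers. Cldn4, a claudin of ductal and other simple epithelia, had 0.303, 0.156, 0 and 0.159 CPM in KO-Drug, 0.528, 2.1, 0.729 and 1.06 in KO, and 0, 0, 0.212 and 0.306 in Het, from 12, 113 and 10 reads in all. Every KO liver was above every other liver, and Cldn4 passed the filter on low counts through the KO libraries alone. KO was 8.10-fold above Het (log2 3.02, SE 0.89, edgeR adjusted p = 0.0156), and KO-Drug was 6.75-fold below KO (log2 -2.75, SE 0.87, edgeR adjusted p = 0.04). Leaving out 1 library gave log2 fold changes of 2.52 to 3.85 for the first and -3.29 to -2.26 for the second, so both kept their direction, while the calls depended on the library left out. The first was not called without KO-4 (adjusted p = 0.0516). The second was not called without KO-4, KO-6, KO-Drug-2, KO-Drug-3 or KO-Drug-4 (0.0644 to 0.12) and with KO-2 and KO-4 alone (0.0716).

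Cldn7, an epithelial claudin of ducts and gut, had 0, 0.26, 0 and 0.478 CPM in KO-Drug, 0.586, 0.56, 0.583 and 0.633 in KO and no read in Het. The 4 KO livers were close to each other and above every KO-Drug liver. Cldn7 also passed the filter on low counts through the KO libraries alone. Set against 3 counts over the Het group, the KO mean was 15.2-fold higher (edgeR adjusted p = 0.006). KO-Drug did not pass the test against KO (log2 -1.65, SE 0.87, edgeR adjusted p = 0.211) or against Het (adjusted p = 0.0678). Cldn18, known from stomach and lung epithelium, had 1.01, 0, 0.606 and 0.849 CPM in KO-Drug, 1.03, 0.7, 0.0875 and 0.76 in KO and no read in Het. Here KO-Drug and KO overlapped throughout. Set in the same way, the rise of the mean over Het was 16.5-fold in KO (edgeR adjusted p = 0.0109) and 15.8-fold in KO-Drug (edgeR adjusted p = 0.0214). The second was not called by limma on log2(FPKM + 0.1) (adjusted p = 0.0598). These folds allow for counting error in the Het group only, and leave out the error and spread of the other group. The table holds fewer values of 1 (2938) than of 2 (3856), so that some low estimates may be listed at 0.

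Cldn14, which limits cation passage in kidney, was called between KO-Drug and KO and in no other comparison. It had 5.5, 3.96, 5.4 and 4.56 CPM in KO-Drug, 9.03, 8.07, 7.09 and 7.39 in KO, and 4.74, 7.22, 8.04 and 6.48 in Het. KO-Drug lay below KO without overlap, a 1.63-fold fall (log2 -0.70, SE 0.19, edgeR adjusted p = 0.0201) that was lost without KO-2, KO-Drug-2 or KO-Drug-4 (0.0528 to 0.0587). KO against Het gave 0.25 (SE 0.18, edgeR adjusted p = 0.292). The gene overlaps the long noncoding gene Gm31012.

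The other 4 tested claudins were not called in the fit of all libraries. Cldn2 had 47.4 to 124 CPM in KO-Drug, 72.7 to 132 in KO and 60.3 to 68.8 in Het, so that all KO livers exceeded all Het livers, with a log2 fold change of 0.60 (SE 0.25, edgeR adjusted p = 0.0719). DESeq2 and total-count scaling called it higher. All KO-Drug livers had less Cldn1 than all Het livers, at 69.3 ± 17.2 CPM in KO-Drug, 85.6 ± 25.3 in KO and 114 ± 27.1 in Het (SD, n = 4 each), with a log2 difference of -0.72 between KO-Drug and Het that was not called (SE 0.24, edgeR adjusted p = 0.0508). With KO-2 and KO-4 as the only KO libraries, Cldn1 was called lower in KO, at -0.87 against Het on the log2 scale (SE 0.28, edgeR adjusted p = 0.0289). Cldn3 gave -0.23 in KO against Het (adjusted p = 0.477 in edgeR), and Cldn15, below 2.2 CPM throughout, gave 0.20 (adjusted p = 0.794 in edgeR).

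Among the tight junction partners, F11r was called, and Ocln, Tjp1 and Tjp3 were not. F11r encodes a junctional adhesion molecule of epithelia, endothelia, platelets and leukocytes. It had 82.2, 87.7, 81.8 and 76.6 CPM in KO-Drug, 160, 147, 109 and 114 in KO, and 70.2, 110, 104 and 85.1 in Het. KO-2 and KO-4 stood above all other livers, KO-5 lay just below and KO-6 just above the highest Het liver, and all KO-Drug livers were below all KO livers. The change was 0.52 in KO against Het (SE 0.16, edgeR adjusted p = 0.0197) and -0.69 in KO-Drug against KO (SE 0.16, edgeR adjusted p = 0.0107). The call against Het was lost without Het-4, KO-2 or KO-4 (0.0559 to 0.0669), and the call in KO-Drug against KO held in every alternative tried.

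The scaffold genes gave 0.14 for Tjp1 (adjusted p = 0.524 in edgeR) and 0.30 for Tjp3 (adjusted p = 0.378 in edgeR) in KO against Het, and occludin, Ocln, gave -0.09 (adjusted p = 0.827 in edgeR). Tjp3 split by library, with 40.7 and 31.3 CPM in KO-2 and KO-4 and 17.9 and 15.2 in KO-5 and KO-6, against 18.1 to 24 in Het. With KO-2 and KO-4 alone it was called higher in KO (edgeR adjusted p = 0.0141) and lower in KO-Drug than in KO (edgeR adjusted p = 0.0154). Tjp3 overlaps the protein-coding gene Apba3.

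The windows before the start sites of Cldn4 and F11r are shown because both genes were called higher in KO and lower in KO-Drug than in KO. Gja4, Cdh1, Cdh17 and Pkp1 were called in the same way. Of these, the window of Gja4 is printed further below and the others are not shown. Each is 250 bases, 5′ to 3′ on the gene's strand, from RefSeq (GRCm38.p6), and ends at the base before the annotated start. Capitals mark matches, on either strand, to CACCTG (the E-box read by Snail-type repressors), TGANTCA (the AP-1 site), GGGCGG (the GC box), and TGCGCNC and TGCACNC (the metal response element core). The direct repeat with a spacer of 4 bases known for LXR was searched too. The Cldn4 window lies at chr5:134946935-134947184 on the minus strand and the F11r window at chr1:171437311-171437560 on the plus strand.
Cldn4: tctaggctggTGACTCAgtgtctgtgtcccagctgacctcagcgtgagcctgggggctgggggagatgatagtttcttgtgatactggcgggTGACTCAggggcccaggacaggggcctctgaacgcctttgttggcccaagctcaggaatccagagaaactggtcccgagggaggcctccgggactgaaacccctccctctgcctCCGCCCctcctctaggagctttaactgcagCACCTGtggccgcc
F11r: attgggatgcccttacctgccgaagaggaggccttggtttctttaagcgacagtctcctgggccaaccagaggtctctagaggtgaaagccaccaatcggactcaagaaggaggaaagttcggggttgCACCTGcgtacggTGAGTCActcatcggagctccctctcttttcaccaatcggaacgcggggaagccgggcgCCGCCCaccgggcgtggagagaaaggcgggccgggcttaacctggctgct
Counted from the start site, Cldn4 holds TGANTCA at -240 and -158, the GC box on the opposite strand at -44 and CACCTG at -14, and F11r holds CACCTG at -122, TGANTCA at -109 and the GC box on the opposite strand at -50. Of the 38 tested genes, 24 had windows in the RefSeq table, 36 in all since a gene can have several. TGANTCA was in 4 of these 36 windows (11.1%), those of Cldn4, Cldn15, F11r and Gja1, CACCTG was in 10 (27.8%) and GGGCGG in 19 (52.8%). Over the 32851 windows of all genes the shares were 6.75%, 17.2% and 32.7%. TGCGCNC and TGCACNC were each in 6 of the 36 (16.7%), against 12.5% and 10.4% of all windows, and the LXR repeat was in none of the 36 (0.0152% of all windows). Windows of 1 gene can overlap, and no test was made of these shares. A match describes the letters of the window and does not show that a factor binds there.

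Gap junction transcripts of these livers came mostly from the hepatocyte connexins Gjb1 and Gjb2. Gjb1 held 72% ± 4.01 of the connexin FPKM in KO-Drug, 71.6% ± 8.54 in KO and 74.9% ± 1.18 in Het, and Gjb2 held 26.5% ± 4.27, 25.4% ± 7.74 and 24.3% ± 1.37 (SD, n = 4 each). Neither was called: Gjb1 had 401 to 463 CPM in KO-Drug, 275 to 612 in KO and 481 to 656 in Het, a log2 change of -0.48 in KO against Het (SE 0.21, edgeR adjusted p = 0.0834), and Gjb2 gave -0.45 (SE 0.20, edgeR adjusted p = 0.0906). With KO-2 and KO-4 as the only KO libraries, Gjb1 was called lower (edgeR adjusted p = 0.00434).

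The connexins that rose were Gja1 and Gja4, both of them minor by level. Gja1, the widely made connexin of stellate cells, Kupffer cells and the liver capsule, had 9.13, 4.79, 6.73 and 7.91 CPM in KO-Drug, 13.1, 15.1, 8.81 and 10.2 in KO, and 4.69, 4.31, 3.44 and 6.27 in Het. All KO livers were above all Het livers, and KO-Drug livers lay between them with overlap on both sides. KO was 2.52-fold above Het (log2 1.33, SE 0.25, edgeR adjusted p = 0.00103). KO-Drug was 0.72 below KO on the log2 scale and missed the threshold (SE 0.24, edgeR adjusted p = 0.0508), while it was called with total-count scaling and with KO-2 and KO-4 alone (adjusted p = 0.0278).

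Gja4, a connexin of arterial endothelium, had 4.29, 2.14, 4.58 and 6.26 CPM in KO-Drug, 6.42, 10.6, 7.96 and 12.7 in KO, and 3.04, 3.48, 3.01 and 2.91 in Het. The Het livers were nearly equal, every KO liver was above every other liver, and KO-Drug overlapped Het. The rise in KO was 3.02-fold (log2 1.59, SE 0.29, edgeR adjusted p = 0.00099), and KO-Drug was 2.17-fold below KO (log2 -1.12, SE 0.29, edgeR adjusted p = 0.0166). With KO-2 and KO-4 alone, the second was -0.94 and not called (0.0733). The other arterial connexin, Gja5, was listed at 0 to 0.958 CPM in KO-Drug, 0.321 to 0.653 in KO and 0.687 to 1.24 in Het, with a log2 change of -0.84 in KO (SE 0.82, edgeR adjusted p = 0.439). Gjc3 gave -0.81 (adjusted p = 0.331 in edgeR).

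The windows of Gja1 and Gja4 are printed in the same way, because these were the connexins called higher in KO. The Gja1 window is chr10:56377050-56377299 on the plus strand and the Gja4 window is chr4:127314040-127314289 on the minus strand.
Gja1: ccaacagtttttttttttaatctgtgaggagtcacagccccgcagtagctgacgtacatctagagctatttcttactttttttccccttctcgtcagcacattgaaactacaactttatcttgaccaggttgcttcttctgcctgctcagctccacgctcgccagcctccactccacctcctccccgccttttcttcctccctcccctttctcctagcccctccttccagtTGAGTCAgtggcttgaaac
Gja4: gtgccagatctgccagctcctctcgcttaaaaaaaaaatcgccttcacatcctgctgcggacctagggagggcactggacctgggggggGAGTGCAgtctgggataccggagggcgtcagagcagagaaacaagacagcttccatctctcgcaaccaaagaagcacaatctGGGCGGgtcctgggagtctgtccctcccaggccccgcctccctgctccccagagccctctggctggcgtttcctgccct
The nearest transcript start that GENCODE vM21 gives for Gja1 lies 30 bases downstream of the RefSeq start used here, and that of F11r 18 bases downstream, while those of Gja4 and Cldn4 are at the RefSeq start. Gja1 holds, counted from the RefSeq start, TGANTCA at -19 and no other searched motif. Gja4 holds TGCACNC on the opposite strand at -161 and the GC box at -79.

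Cdh1, which encodes E-cadherin, was higher in KO than in Het and lower in KO-Drug than in KO. It had 20.1, 52.6, 37.1 and 20.6 CPM in KO-Drug, 79.4, 72.3, 84 and 88.6 in KO, and 16.4, 31.5, 29.3 and 31 in Het. The KO livers were tightly grouped above all others, and KO-Drug overlapped Het. KO was 3.00-fold above Het (log2 1.58, SE 0.29, edgeR adjusted p = 0.000975), KO-Drug was 2.49-fold below KO (log2 -1.31, SE 0.29, edgeR adjusted p = 0.00778), and KO-Drug against Het gave 0.27 (SE 0.29, edgeR adjusted p = 0.564). Both calls held in every alternative tried.

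Cdh2, which encodes N-cadherin, did not pass any test, at 84.1 to 126 CPM in KO-Drug, 83.2 to 115 in KO and 76.6 to 138 in Het. The ratio of Cdh1 to Cdh2 reads, which no scaling touches, was 0.223 to 0.416 in KO-Drug, 0.773 to 0.909 in KO and 0.214 to 0.291 in Het. KO stood apart from both other groups in this ratio, which was chosen after the values were seen. Cdh1 lies on chromosome 8 (chr8:106603350-106670247), as does Atp7b, 84.5 Mb away. In mice of mixed strain, alleles linked to the mutation and the mutation itself cannot be told apart in KO against Het.

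Cdh17, the liver-intestine cadherin, was read in KO alone, and so could pass the filter on low counts only through KO. Its counts were 17, 38, 31 and 22 in KO-2, KO-4, KO-5 and KO-6, or 0.498 to 1.77 CPM, with none in the KO-Drug and the Het libraries. Set against 3 counts over the group at 0, the KO mean was 26.4-fold above Het (edgeR adjusted p = 0.00196) and 26.0-fold above KO-Drug (edgeR adjusted p = 0.00572). The other 5 tested cadherins besides Cdh2 were not called: Cdh5, the cadherin of endothelium, came closest with 0.58 in KO against Het (SE 0.23, edgeR adjusted p = 0.0544) and was called with KO-2 and KO-4 alone (adjusted p = 0.0429). Cdh3, Cdh4, Cdh13 and Cdh18 had mean levels of 0.139 to 3.26 CPM in KO-Drug, 0.48 to 4.4 in KO and 0.155 to 4.07 in Het. Cdh3, Cdh5 and Cdh13 also lie on chromosome 8, 82 to 96.1 Mb from Atp7b.

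**Figure D3:**
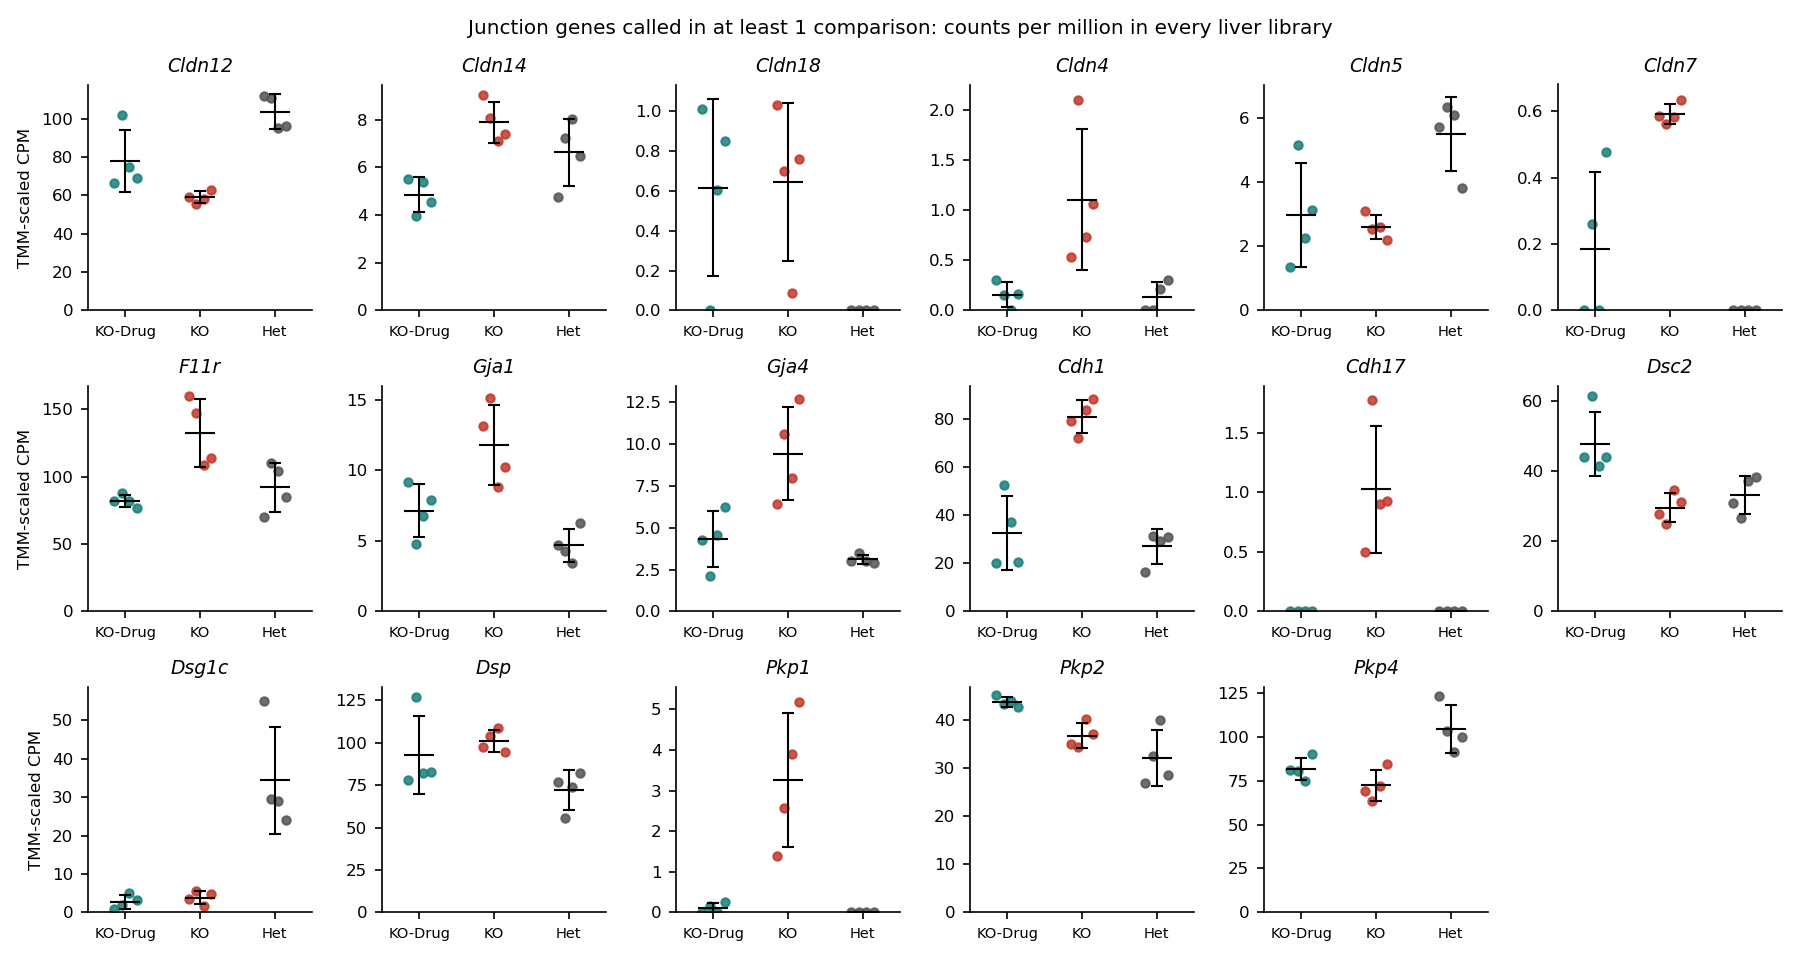
TMM-scaled CPM (y axis, linear from 0) of the reported junction genes called in at least 1 comparison, 1 panel per gene. Points are the 4 libraries of KO-Drug (teal), KO (red) and Het (grey), with the mean and SD in black. KO points stand above both other groups for Cldn4, Cldn7, Gja4, Cdh1, Cdh17 and Pkp1, and Het points stand above both for Dsg1c. Cldn4, Cldn7, Cdh17 and Pkp1 passed the filter on low counts through the KO libraries alone, so their place here was partly set by it.

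In the desmosome, the single cadherins and plaque proteins went different ways. Pkp1, a plakophilin of stratified epithelia, had 0, 0.156, 0 and 0.265 CPM in KO-Drug, 1.38, 2.57, 3.91 and 5.19 in KO and no read in Het, from 8, 359 and 0 counts. All KO livers were above all others, and Pkp1 passed the filter on low counts through the KO libraries alone. Set against 3 counts over the Het group, the KO mean was 83.9-fold higher (edgeR adjusted p = 0.000306). KO-Drug was 29.4-fold below KO (log2 -4.88, SE 0.81, edgeR adjusted p = 0.00373). That value rests on 8 reads in 2 KO-Drug libraries and was -5.81 without KO-Drug-4 and -4.11 with KO-2 and KO-4 alone.

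Dsg1c, one of the mouse copies of the desmoglein that in human skin is bound by the antibodies of pemphigus foliaceus, had the largest fall of the tested junction genes in KO and in KO-Drug against Het. It had 0.958, 1.82, 4.96 and 3.34 CPM in KO-Drug, 3.46, 5.46, 1.66 and 4.9 in KO, and 54.9, 29.6, 28.9 and 24.1 in Het. Every Het liver exceeded every liver of the other groups, which overlapped each other. It was 8.97-fold lower in KO (log2 -3.17, SE 0.46, edgeR adjusted p = 0.000204) and 12.4-fold lower in KO-Drug (log2 -3.64, SE 0.48, edgeR adjusted p = 0.000141), both against Het. Dsg1c has near-identical copies beside it, Dsg1a with 0, 21 and 57 reads and Dsg1b with 2, 28 and 46 reads in KO-Drug, KO and Het, and reads may have been divided among the 3 in an unknown way. All 3 had their highest sum in Het.

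Dsc2, a desmocollin of simple epithelia, was the only junction gene higher in KO-Drug than in KO. It had 44.1, 61.4, 41.5 and 44 CPM in KO-Drug, 27.7, 25, 34.6 and 31.3 in KO, and 31, 26.8, 37.3 and 38.3 in Het. All KO-Drug livers were above all others. The change was 1.61-fold against KO (log2 0.69, SE 0.16, edgeR adjusted p = 0.0104) and 1.43-fold against Het (log2 0.52, SE 0.16, edgeR adjusted p = 0.034). With total-count scaling the first was 0.35 and not called (0.131), and the second was lost without Het-1, Het-2 or KO-Drug-2 (0.0711 to 0.104).

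Dsp, desmoplakin, which links the plaque to keratin, had 78.1, 127, 82.3 and 83 CPM in KO-Drug, 97.7, 104, 109 and 94.3 in KO, and 76.6, 55.6, 73.8 and 82.4 in Het. KO was above Het without overlap, by 1.40-fold (log2 0.49, SE 0.17, edgeR adjusted p = 0.0311), but the call was lost without Het-2, Het-3, KO-4 or KO-5 (0.0558 to 0.0955) and with KO-2 and KO-4 alone (0.139). Pkp4, a plakophilin relative of adherens junctions, had 80.9, 80.6, 74.5 and 90.2 CPM in KO-Drug, 69.2, 63.1, 71.8 and 84.7 in KO, and 123, 103, 91.1 and 100 in Het. It was 1.44-fold lower in KO without overlap (log2 -0.53, SE 0.13, edgeR adjusted p = 0.00467), and with total-count scaling the difference was -0.03 (adjusted p = 0.88).

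Pkp2, the plakophilin of simple epithelia and heart, had 45, 43.2, 43.8 and 42.6 CPM in KO-Drug, 34.9, 34.4, 40.2 and 37.1 in KO, and 26.9, 32.5, 40 and 28.5 in Het. The KO-Drug livers were nearly equal and above all others. The rise over Het was 1.36-fold (log2 0.45, SE 0.12, edgeR adjusted p = 0.0195), lost without Het-4 or KO-Drug-1 (0.0525 to 0.0705). Dsg2, Jup (plakoglobin) and Pkp3 were not called in any comparison, with log2 changes of 0.32, 0.28 and 0.37 in KO against Het (adjusted p of 0.228, 0.285 and 0.665 in edgeR).

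Of the 53 junction genes with too few reads to test, 15 had no read at all, among them Cldn9, Cldn19, Gjb6, Cdh16 and Dsg4. None reached more than 71 counts in a library. Large sums were 15, 121 and 13 counts for Cdh6, 0, 21 and 57 for Dsg1a, 2, 28 and 46 for Dsg1b, 0, 54 and 0 for Dsc1, 3, 49 and 0 for Cldn6, 0, 42 and 0 for Cdh23 and 9, 27 and 0 for Cldn23, in KO-Drug, KO and Het. Cdh6 rested mostly on KO-2 (71 counts), while Dsc1 had 12 to 16 counts in each KO library. In all, 31 of the 53 (58.5%) had more counts in KO than in Het and 20 (37.7%) were counted in KO alone. Of all 11153 genes with too few reads to test, 39.6% had more counts in KO than in Het and 20.7% were counted in KO alone. The KO libraries also had reads in more genes of the whole table, and the part of this in the scarce junction genes was not tested. Without the filter on low counts, Cldn6, Cldn23, Cdh23 and Dsc1 were called higher in KO than in Het (edgeR adjusted p 0.00693 to 0.048). In the same fit Dsc1 and Dsg1a were called lower in KO-Drug than in KO (edgeR adjusted p = 0.0162 and 0.0195). Against Het, KO-Drug was called lower for Dsg1a and Dsg1b (edgeR adjusted p = 0.00214 and 0.00864) and higher for Cldn23 (edgeR adjusted p = 0.0386).

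Other genes of the same structures were read from a list of 67, of which 54 could be tested. In KO against Het, 19 were higher and 5 lower (44.4%, median log2 fold change 0.18), against 40.7% of all genes (23.0% higher and 17.7% lower). In KO-Drug against KO, 4 were higher and 9 lower (24.1%, median -0.12), against 19.8% (8.8% higher and 11% lower). In KO-Drug against Het, 10 were higher and 2 lower (22.2%, median -0.02), against 21.4% (13.0% higher and 8.45% lower). The total shares called were near those of all genes, and the split by direction was not tested. Nectin3, an adhesion molecule that joins the cadherins at adherens junctions, averaged 40.9 ± 8.32 CPM in KO-Drug, 24.7 ± 1.94 in KO and 72 ± 6.87 in Het (SD, n = 4 each). It fell in KO against Het (log2 -1.54, SE 0.15, edgeR adjusted p = 8.41e-06) and was higher in KO-Drug than in KO (log2 0.72, SE 0.15, edgeR adjusted p = 0.00522), with KO-Drug between both. Panx1, a channel protein related in shape to connexins, averaged 0.593 ± 0.0363 CPM in KO-Drug, 4.3 ± 0.909 in KO and 0.404 ± 0.274 in Het, which is 3.39 on the log2 scale in KO against Het (SE 0.52, edgeR adjusted p = 0.000282) and -2.84 in KO-Drug against KO (SE 0.50, edgeR adjusted p = 0.00286).

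Iqgap1, a scaffold that binds E-cadherin and actin regulators, fell by 1.41 on the log2 scale in KO-Drug against KO (SE 0.27, edgeR adjusted p = 0.00424), with 30.5 ± 9.34 CPM in KO-Drug, 80.8 ± 28.9 in KO and 24.5 ± 4.33 in Het. Amot and Ajuba, which bind junctions and the Hippo pathway, were higher in KO than in Het by 1.43 (SE 0.17, edgeR adjusted p = 3.93e-05) and 2.34 (SE 0.32, edgeR adjusted p = 0.000136). Periplakin, Ppl, a linker of the desmosome to keratin, and Krt8, the hepatocyte keratin, were higher by 2.89 (SE 0.34, edgeR adjusted p = 4.42e-05) and 1.59 (SE 0.24, edgeR adjusted p = 0.000252). Neither passed the test in KO-Drug against KO, with -0.30 for Ppl (adjusted p = 0.527 in edgeR) and -0.22 for Krt8 (adjusted p = 0.545 in edgeR).

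Markers of other liver cells moved in the same comparisons as the junction genes. In RNA from liver pieces, fewer cells of a type and less RNA per cell cannot be told apart. Of 11 tested markers of bile duct and ductular cells, 5 were higher and 1 lower in KO against Het, and 1 was higher and 3 lower in KO-Drug against KO. Their sum was 42.5 to 60.4 CPM in KO-Drug, 93.2 to 187 in KO and 29.1 to 36.3 in Het, and no marker was at 0 throughout. Epcam was higher in KO than in Het (log2 2.39, edgeR adjusted p = 0.00927), whereas the duct keratins gave 1.05 for Krt7 and 0.56 for Krt19 (adjusted p of 0.33 and 0.466 in edgeR).

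Stellate cell markers were higher for 7 of 12 in KO against Het and lower for 8 of 12 in KO-Drug against KO, with sums of 386 to 417 CPM in KO-Drug, 592 to 945 in KO and 415 to 533 in Het. Macrophage markers were higher for 10 of 12 and lower for 7 of 12, with sums of 526 to 1188, 1119 to 2513 and 461 to 631 CPM in KO-Drug, KO and Het. Hepatocyte markers were lower for 8 of 10 in KO against Het and higher for 2 of 10 in KO-Drug against KO. Cell division markers were higher for 8 of 8 in KO against Het and lower for 1 of 8 in KO-Drug against KO. T and NK cell markers (5 of 6), neutrophil markers (4 of 4) and B cell markers (1 of 3) were higher in KO against Het, mesothelial markers were not called (0 of 2), and of the markers of other tissues 1 was tested and lower, with Cpa1, Plin1 and Krt5 at 0 in all libraries. The part of these cells in the levels of Cldn4, Cldn7, F11r, Gja1, Gja4, Cdh1, Cdh17 and Pkp1 was not tested.

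**Figure D4:**
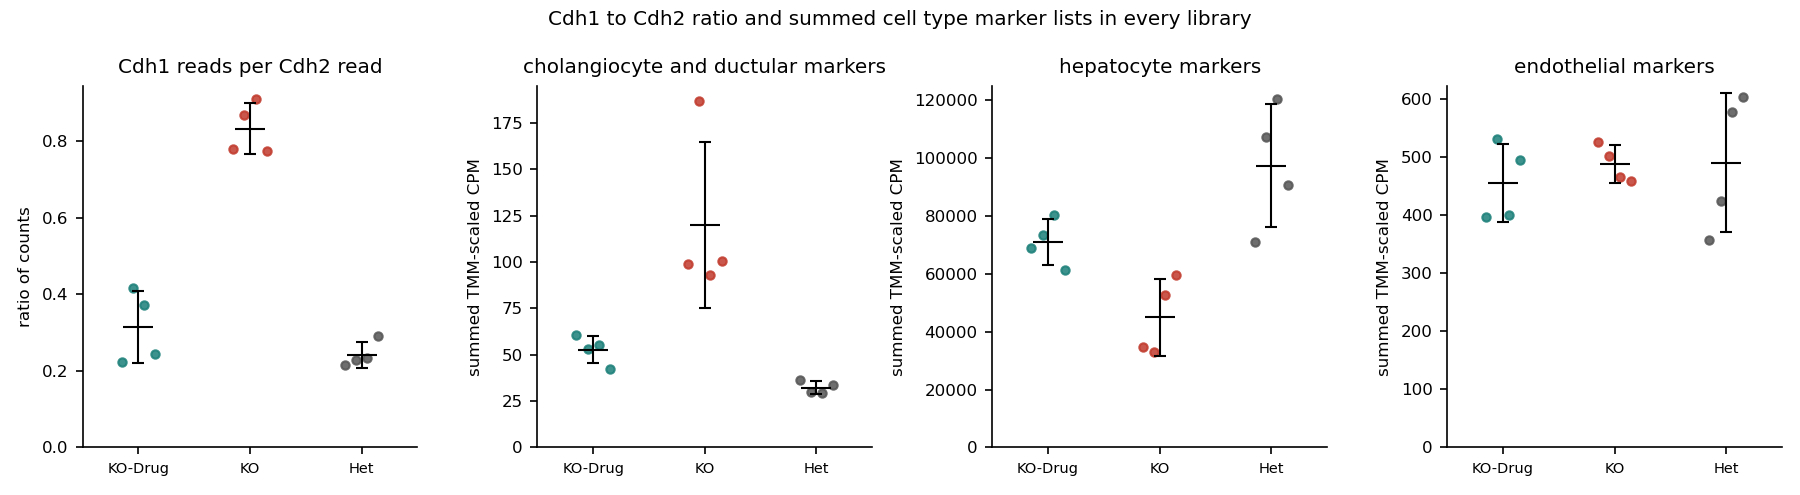
Reads of Cdh1 per read of Cdh2 (first panel, ratio of counts) and the summed TMM-scaled CPM of 3 marker lists (other panels), each axis from 0. Points are the 4 libraries of KO-Drug (teal), KO (red) and Het (grey), with the mean and SD in black. KO stands above both other groups in the ratio and in the ductular sum, with KO-4 the highest ductular sum at 187 CPM, and the endothelial sums overlap.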

How the data were processed

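Per the labels' protocols, liver pieces were flash frozen and the TruSeq Stranded Total RNA chemistry gave the libraries. The submitters' processing notes name the build mm10 and the tools StringTie 2.1.3b and FastQC 0.11.7. The sources used here do not give the aligner, the annotation release or the strand setting. Raw counts of reads and FPKM values, both for each gene in each library, are what the authors deposited, per the file headers. Columns without a name (3) were not used.

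The filter on low counts was filterByExpr (at least 10 counts, total at least 15). All 12 libraries entered 1 edgeR 4.0.16 quasi-likelihood fit on the counts (R 4.3.3, TMM scaling, group means, two-sided, Benjamini-Hochberg over 13379 genes, called under 0.05). The SE of an edgeR log2 fold change is its absolute value divided by the square root of the test's F statistic. The code was tested on simulated data. FPKM served for levels between genes and for limma 3.58.1 on log2(FPKM + 0.1) and log2(FPKM + 1). Other alternatives were DESeq2 1.42.0, its size factors, total-count scaling, no filter, only the groups compared, KO-2 and KO-4 as the only KO libraries, a replicate block and leaving out each library. CPM are TMM-scaled. A fold against a group at 0 sets the mean of the other group, without its spread, against 3 counts over the group at 0. Positions and promoter windows are from RefSeq (GRCm38.p6), and all 91 genes matched.

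Of the 38 tested genes, 11 overlap another annotated gene, and the strand setting of the counting is unknown. The tested members are named, those called with values per library, except that a few genes are not reported here although the counts include them. Of the other junction genes, the 6 with the smallest adjusted p in KO against Het and the 3 in KO-Drug against KO are named. Members, gene lists and the KO-2 and KO-4 alternative were chosen with earlier results of these data known. Within-group correlations of libraries were 0.952 to 0.979, and at most 2.49% of genes had equal counts in a pair, so no library was taken as a copy. Nothing says that the libraries of a group come from separate litters, so p-values measure the spread between these libraries only.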

Additional observations from a re-analysis of the deposited data

Results flagged for a closer look

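Within groups of 4 libraries, 1 library stood far from the other 3 in 7 of 109 combinations of gene and group, where chance gives about 1 in 20. KO-Drug-2 was high for 3 genes, at 55.6 CPM for Cldn3, 61.4 CPM for Dsc2 and 127 CPM for Dsp. Het-1 was low for Cdh1 at 16.4 CPM and high for Gja5 at 1.24 CPM. KO-4 was high for Cldn15 at 2.15 CPM, and KO-Drug-1 was the only KO-Drug library with reads of Cdh3, at 0.555 CPM. Without Het-1 or KO-Drug-2 the Dsc2 call in KO-Drug against Het was lost (adjusted p = 0.0711 and 0.0955 in edgeR), and the Cdh1 calls held.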

How the results depend on the processing

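Of the 29 calls of single junction genes, 29 held with DESeq2 and with its size factors in edgeR. With total-count scaling 24 held, with no filter 27, with only the groups compared 27, and with limma on either FPKM scale 23. Pkp4 in KO against Het turned to 0.0049 on log2(FPKM + 0.1) and 0.0034 on log2(FPKM + 1), with adjusted p of 0.982 and 0.986 in limma. In KO against Het, the count of genes called higher (11) was 20 with total-count scaling and 21 with limma on either FPKM scale, and the count called lower (4) was 1 in all 3. In KO-Drug against KO, the count higher (1) was 0 in these 3 and 2 with DESeq2, and the count lower (7) was 12 with total-count scaling, 16 with log2(FPKM + 0.1) and 14 with log2(FPKM + 1). In KO-Drug against Het, the count lower (2) was 1 in these 3 and 5 with DESeq2. Over all genes, KO-Drug against KO (2654 calls) gave 4256 with total-count scaling and 4781 and 4923 with limma on log2(FPKM + 0.1) and log2(FPKM + 1). The cause of these shifts was not tested.

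Leaving out 1 library gave 9 to 12 junction genes higher and 3 to 5 lower in KO against Het, 1 to 2 higher and 5 to 8 lower in KO-Drug against KO, and 3 to 5 higher and 1 to 3 lower in KO-Drug against Het. Over all genes it gave 4667 to 5129, 1599 to 2884 and 2258 to 2806 calls, with 1642 in KO-Drug against KO without KO-4 and 1599 without KO-Drug-3.

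The deviations of libraries with the same number correlated at -0.0346 to 0.136 over 8 pairs (median 0.0893, 7 positive, 3 above 0.1). The 40 other pairs gave -0.181 to 0.22 (median -0.0361, 16 positive, 5 above 0.1). Since not every pair was above 0.1, the numbers were not taken as pairs. That rule cannot exclude that libraries with the same number share a source of spread. A replicate block left 7 junction genes higher and 4 lower in KO against Het, 1 higher and 5 lower in KO-Drug against KO, 2 higher and 2 lower in KO-Drug against Het, and 1741 calls over all genes in KO-Drug against KO. Libraries KO-5 and KO-6 have numbers that occur in no other group, so under the block they added nothing to the comparisons. KO entered through KO-2 and KO-4 alone, and the block left fewer degrees of freedom in all comparisons. A lost call therefore does not show an effect of pairing. Of the 29 calls, 16 held under the block and 13 did not. Among those not called were, by edgeR adjusted p, Cdh17 (0.0504), Cldn7 (0.059), Cldn5 (0.0784), Cldn4 (0.0933) and Dsp (0.281) in KO against Het, Cldn14 (0.0675), Cdh17 (0.081), Gja4 (0.095) and Cldn4 (0.193) in KO-Drug against KO, and Cldn12 (0.0647), Cldn18 (0.0737) and Dsc2 (0.0804) in KO-Drug against Het. The block called Tjp3 higher and Gjb1 lower in KO against Het, Gja1 and Tjp3 lower in KO-Drug against KO, and Cldn1 lower in KO-Drug against Het.

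Genes under about 1 CPM rest on few reads, and their folds carry wide errors. Depth limits what can be said of the 53 untested genes.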

Other observations

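Cldn2 and Gjb1 lie on the X chromosome (chrX:139800808-139811386 and chrX:101376376-101385629). In KO-5, the library with 81.7 CPM of Xist, Gjb1 was at 612 CPM and Cldn2 at 132 CPM, against 275 to 432 CPM and 72.7 to 97 CPM in the other KO libraries. KO-6, with 17.8 CPM of Xist, had 432 CPM of Gjb1 and 86.7 CPM of Cldn2. High KO-5 values were not limited to the X chromosome. Cldn1 on chromosome 16 was at 116 CPM in KO-5 and 62.6 to 97.1 in the other KO libraries. Cldn3 on chromosome 5 was at 49.6 against 25.5 to 36.2 CPM, and Ocln on chromosome 13 at 51.7 against 32.6 to 37.8 CPM. Other autosomal genes, such as Gjb2 (171 CPM) and F11r (109 CPM), were lowest in KO-5 among the KO libraries. Reads of Gjb2, on chromosome 14, per read of Gjb1 were 0.279 in KO-5, 0.477 in KO-6 and 0.722 to 0.737 in KO-2 and KO-4, against 0.448 to 0.528 in Het. The labels give no sex, and its part in these values was not tested.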
